A study of Arabidopsis thaliana with 12 samples.

Results

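Variegated leaves of the Arabidopsis thaliana mutant melinoe were compared with what a mixture of its green and its white leaves would give. The comparison used 9 of the 12 libraries of the series: 3 from green-white, 3 from green and 3 from white rosette leaves. The members were chosen by the group in the sample labels, not by any measured value. All 9 carry the same genotype, melinoe, an EMS mutant (made with ethyl methanesulfonate) of the FMN/FHY gene. The 3 libraries of wild-type rosette leaves served to estimate the spread and to give a reference level. Plants of all groups were sown on medium with 1% sucrose, stratified for 48 h, and grown at 22 °C with 16 h of light of 75 µmol m−2 s−1 and 8 h of darkness, later on soil. The sample labels name the class green-white, whereas the extraction protocol speaks of a pale green stage, so the labels leave unsaid whether these leaves were sectored or evenly pale. Whether leaves of several plants were pooled, and their age and hour of harvest, is not stated. The libraries are called biological replicates, and the tests rest on the spread among them.

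FMN/FHY encodes the enzyme that phosphorylates riboflavin to FMN, a cofactor of many redox enzymes, and that can also hydrolyse FMN. In variegated leaves, sectors with green plastids and sectors with pale plastids develop side by side from cells of one genotype. White sectors have little photosynthesis of their own and are fed with sugar by green tissue. If green-white leaves were a plain mixture of both tissues, each transcript would lie between its green and its white level, and every transcript would lie at the same fraction of the way. Both properties hold exactly only on the scale of library totals, on which mixed RNA is additive. With TMM scaling a mixture can leave the range by a small distance. The fraction is a share of RNA, and in whole leaves fewer cells of a type and less RNA per cell cannot be told apart.

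Levels are given as CPM, counts scaled to a common library size with TMM factors, over libraries of 25795702 to 26760055 estimated counts, and 19424 genes were tested. The TMM factors followed leaf colour, at 0.913 to 0.929 in green, 1.08 in green-white and 1.11 to 1.12 in white libraries, so small differences depend on the scaling and are given with their sizes. FMN/FHY itself was not outside the range: it had 22.7, 21.4 and 22.2 CPM in green, 23.55, 23.48 and 23.71 in green-white and 24.2, 23.9 and 25.2 in white libraries. Its log2 difference from the midpoint of green and white was 0.02 ± 0.04 (SE, adjusted p = 0.72). All groups are labelled as leaves. The 21 antenna genes summed to 57840 to 59630 CPM in green-white, 126400 to 136200 in green, 33420 to 34780 in white and 142000 to 146000 in wild-type libraries. Of 8 listed root markers 4 passed the filter on low counts. These 4 summed to 91.7 to 105 CPM in green-white, 120.1 to 137.7 in green, 45.39 to 48.15 in white and 42.6 to 45.46 in wild-type libraries. Values of genes marked below as sharing reads were not whole in every library, as when reads are divided between similar genes. The other gene was not identified, and the words similar gene below stand for this mark alone. Among the genes so marked, BOA, RLP40, BGLU9, UGT73C6, FTSH1, VAR2 and VDE also have annotations that overlap that of a neighbour, which may be the gene that shares the reads. The annotations of LUX, JAZ10, JAZ13, SWEET1, ERF018, TCH3, RIBA3, LHCA4, LHCB3, PSBP1, FD1, BBX24, SIG3, XCP1, CESA7, DREB2A, HSP101, HSP17.4, ANK, GLR3.5, FKF1, BCH2, BHLH101, CYCA2;3, CDKB2;1, OLEO1 and FMN/FHY overlap that of a neighbour, and their levels may hold some of its reads. Of 7 meristem markers, 3 passed that filter, and STM, WUS and CLV3, which define the shoot meristem, were not among them.

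Most genes differed between any pair of melinoe classes: 72.6% of those tested between green and white, 59.5% between green-white and green and 64.3% between green-white and white leaves (edgeR, adjusted p under 0.05). A gene was called above or below the range when green-white leaves differed from both green and white leaves in the same direction, with the larger of both p-values adjusted over all genes and under 0.05. Green-white leaves lay above both classes for 1649 genes, 8.49% of those tested, and below both for 1436 genes, 7.39%. Most of these distances were small. At least 1.5-fold from the nearer class were 434 genes above (2.23%) and 98 below (0.505%), and at least 2-fold were 115 above (0.592%) and 18 below (0.0927%). With library totals as the only scaling, on which mixed RNA is exactly additive, the calls were 2382 above and 637 below. The share of above among the called genes was then 78.9%, against 53.5% with TMM scaling. At the 1.5-fold distance the genes above were the larger part under both scalings, at 92.6% with library totals and 81.6% with TMM. Of the genes called above with TMM, 1490 were also called above with library totals, and of those called below 561. Every green-white library lay above all 6 green and white libraries for 2218 genes (11.4%) and below all of them for 2014 genes (10.4%).

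**Figure D1:**
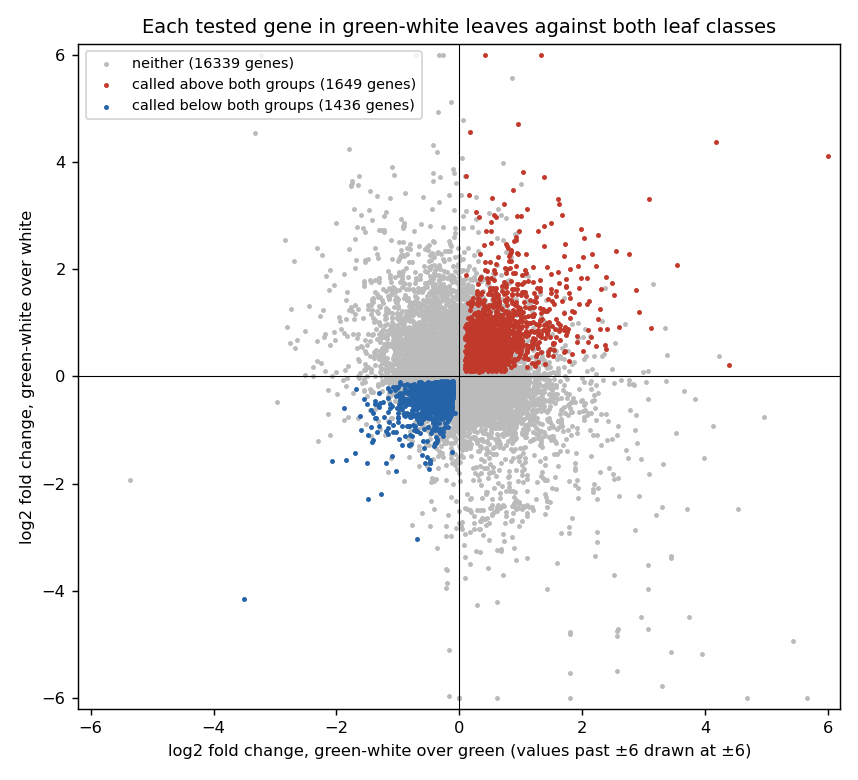
Each point is a tested gene, placed by the log2 fold change of green-white over green leaves (x axis) and of green-white over white leaves (y axis), from 3 libraries per group. The 1649 red genes lie above both classes, the 1436 blue genes below both, and the grey genes are not called outside the range; the red cloud reaches farther from the origin than the blue one.

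Against wild type, 1152 of the 1649 genes above the range were also called higher and 310 lower in green-white leaves. Of the 1436 below the range, 974 were called lower and 193 higher than wild type. Genes outside the mutant classes' range were therefore found on either side of the wild-type level.

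Genes were ranked among those with a gene symbol, at least 5 CPM in the highest melinoe class and no overlap between libraries. Genes outside this ranking may lie farther out. The ranked gene farthest above was CSLA01 (AT4G16590, chromosome 4, 9345150 to 9349258, plus strand), a member of the cellulose synthase-like A family, which makes mannan backbones of the cell wall. It had 15.0, 15.4 and 14.8 CPM in the green-white libraries, 1.931, 1.801 and 1.598 in green and 1.43, 1.61 and 1.49 in white libraries. The groups did not overlap, and wild type was also high, at 11.3, 9.81 and 9.21 CPM. Green-white exceeded green, the nearer class, by a log2 value of 3.08 ± 0.13 (SE, adjusted p = 3.2e-20), an 8.44-fold difference. BAP2, a negative regulator of cell death, lay 4.16-fold above its nearer class, at 6.51 to 7.11 CPM in green-white, 1.27 to 1.64 in green, 1.46 to 1.89 in white and 1.12 to 2.11 in wild-type libraries. AGP18, an arabinogalactan protein of the cell surface, lay 3.18-fold above, at 11.5 to 13.9 CPM in green-white, 3.16 to 4.52 in green, 3.56 to 4.21 in white and 19.0 to 20.7 in wild-type libraries. BAP2 was thus higher in green-white leaves than in any other group, and AGP18 stood between wild type and the other mutant classes. GH3.3, which conjugates auxin to amino acids, lay 2.39-fold above, at 16.3 to 17.5 CPM in green-white against 5.66 to 6.49 in green, 5.91 to 7.66 in white and 3.105 to 4.996 in wild-type libraries. OPT2, annotated as an oligopeptide transporter, lay 2.33-fold above and had under 1 CPM in each wild-type library. FUR1, a transporter of the major facilitator superfamily, and the receptor-like protein gene RLP40 lay 2.48-fold and 2.96-fold above, and both share reads with similar genes.

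In the same ranking the genes farthest below their nearer class were less far out, and SWEET1, CYP707A4, CYP707A2, PRR5, WRKY54 and CIA2 among them are described with their groups. BGLU9, a beta-glucosidase gene that shares reads with a similar gene, had 28.9, 26.2 and 27.9 CPM in green-white, 60.7 to 62.5 in green, 49.2 to 51.7 in white and 34.4 to 37.3 in wild-type libraries, 1.81-fold below white. DES1, which releases sulfide from cysteine in the cytosol, lay 1.8-fold below, at 13.8 to 14.9 CPM in green-white, 24.8 to 27.3 in green and 26.8 to 28.7 in white libraries, with 18.31, 20 and 19.49 in wild type. The glutamate receptor-like channel gene GLR3.5 lay 1.85-fold below, at 12.4 to 13.5 CPM in green-white, 23.1 to 24.7 in green and 27.4 to 28.2 in white libraries. In each of these 3 genes the green-white libraries were also under all wild-type libraries. The ankyrin gene ANK and the glucosyltransferase gene UGT73C6 lay 1.9-fold and 1.77-fold below, and UGT73C6 shares reads with a similar gene.

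Among the ranked genes farthest above were 3 with known parts in the circadian clock, the oscillator that times expression to the day. They were singled out by their distance and belong to no list used here. JMJD5 (AT3G20810, chromosome 3, 7275645 to 7278420, plus strand), an evening-expressed histone demethylase family protein, had 16.0, 15.6 and 16.8 CPM in green-white, 3.45, 3.03 and 3.61 in green and 2.12, 2.83 and 2.81 in white libraries. The distance from green was 2.26 ± 0.10 on the log2 scale (adjusted p = 2.1e-18), and wild type had 12.8 to 14.0 CPM. RVE2 (AT5G37260), a MYB-like factor related to CCA1 and LHY, had 11.78, 11.99 and 11.02 CPM in green-white, 3.33, 2.74 and 3.07 in green and 2.54, 3.28 and 2.50 in white libraries, with 17.0 to 18.3 in wild type. No green-white value of either gene came near those of green or white. BOA (AT5G59570), a relative of the evening factor LUX, had 8.22, 7.99 and 7.01 CPM in green-white against 2.14, 3.68 and 3.53 in green and 2.51, 1.89 and 2.29 in white libraries; it shares reads with a similar gene, so its level is uncertain. RVE2 and BOA lay above their nearer class by 1.93 ± 0.11 and 1.31 ± 0.13 on the log2 scale (adjusted p = 5.8e-16 and 1.0e-09).

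The daytime repressors of the clock PRR5 and PRR7 were below the range. PRR5 (AT5G24470, chromosome 5, 8356204 to 8358546, minus strand) had 57.2, 59.2 and 58.2 CPM in green-white, 102.9, 102.5 and 102.9 in green and 138.4, 141.2 and 142.4 in white libraries. Green-white was lower than green, the nearer class, by a log2 value of −0.82 ± 0.03 (adjusted p = 3.5e-18), and wild type had 54.8 to 55.7 CPM. PRR7 (AT5G02810) had 155.7, 161.4 and 153.4 CPM in green-white, 197.7, 209.3 and 217.5 in green and 269.4, 276.1 and 266.7 in white libraries (log2 distance −0.41 ± 0.03, adjusted p = 2.3e-11), and 154.3 to 159.7 in wild type. For both genes the green-white and wild-type libraries lay below every green and white library. Of 17 clock genes, 6 were below the range and 1, LUX, above, against 7.39% and 8.49% of all tested genes. LUX shares reads with a similar gene. With library totals 5 were below and 3 above, where 637 and 2382 of the 19424 tested genes were. The other members below were PRR9, GI, RVE4 and FKF1, and the oscillator genes CCA1, LHY and TOC1 were inside the range. PRR9 shares reads with a similar gene. The hour of harvest is not given in the sources used here for any group.

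The bases just upstream of these 4 genes are shown because clock-regulated promoters are known for the evening element (AAAATATCT) and for the G-box (CACGTG). The windows are the 250 bases before the annotated gene start, from the RefSeq copy of TAIR10.1, at chr5:24003638-24003887 (plus strand) for BOA and, on the minus strand, chr5:14753089-14753338 for RVE2, chr5:8358547-8358796 for PRR5 and chr5:642031-642280 for PRR7. Capitals mark either motif on either strand.
BOA: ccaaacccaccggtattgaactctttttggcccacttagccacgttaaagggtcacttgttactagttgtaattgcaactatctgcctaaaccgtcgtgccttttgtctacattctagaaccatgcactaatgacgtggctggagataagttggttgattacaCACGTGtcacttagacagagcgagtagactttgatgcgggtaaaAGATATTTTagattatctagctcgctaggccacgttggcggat
RVE2: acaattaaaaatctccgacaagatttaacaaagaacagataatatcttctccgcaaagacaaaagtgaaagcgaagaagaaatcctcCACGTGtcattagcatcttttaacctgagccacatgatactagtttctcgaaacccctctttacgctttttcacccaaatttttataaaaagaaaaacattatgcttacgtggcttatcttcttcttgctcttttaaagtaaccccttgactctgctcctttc
PRR5: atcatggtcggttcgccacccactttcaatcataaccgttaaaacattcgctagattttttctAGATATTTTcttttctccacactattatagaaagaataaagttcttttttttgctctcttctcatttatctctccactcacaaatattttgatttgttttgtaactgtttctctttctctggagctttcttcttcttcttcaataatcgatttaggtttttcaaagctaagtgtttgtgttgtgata
PRR7: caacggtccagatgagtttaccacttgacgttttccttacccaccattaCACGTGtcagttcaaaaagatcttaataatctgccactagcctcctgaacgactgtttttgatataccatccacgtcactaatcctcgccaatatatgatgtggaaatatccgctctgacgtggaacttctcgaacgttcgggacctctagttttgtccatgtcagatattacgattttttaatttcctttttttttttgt
BOA holds both motifs, PRR5 an evening element, RVE2 and PRR7 a G-box each, and the window of JMJD5 holds neither string. Among other clock genes outside the range, the window of RVE4 holds neither string and that of LUX holds both. Searched on both strands, the evening element occurred in 2.56% of the windows of 19423 tested genes, in 2.43% of those above the range and 4.11% of those below. The G-box occurred in 7.49% of all windows, 8.67% of those above and 7.03% of those below. These shares describe matching letters in one window per gene and were not tested.

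**Figure D2:**
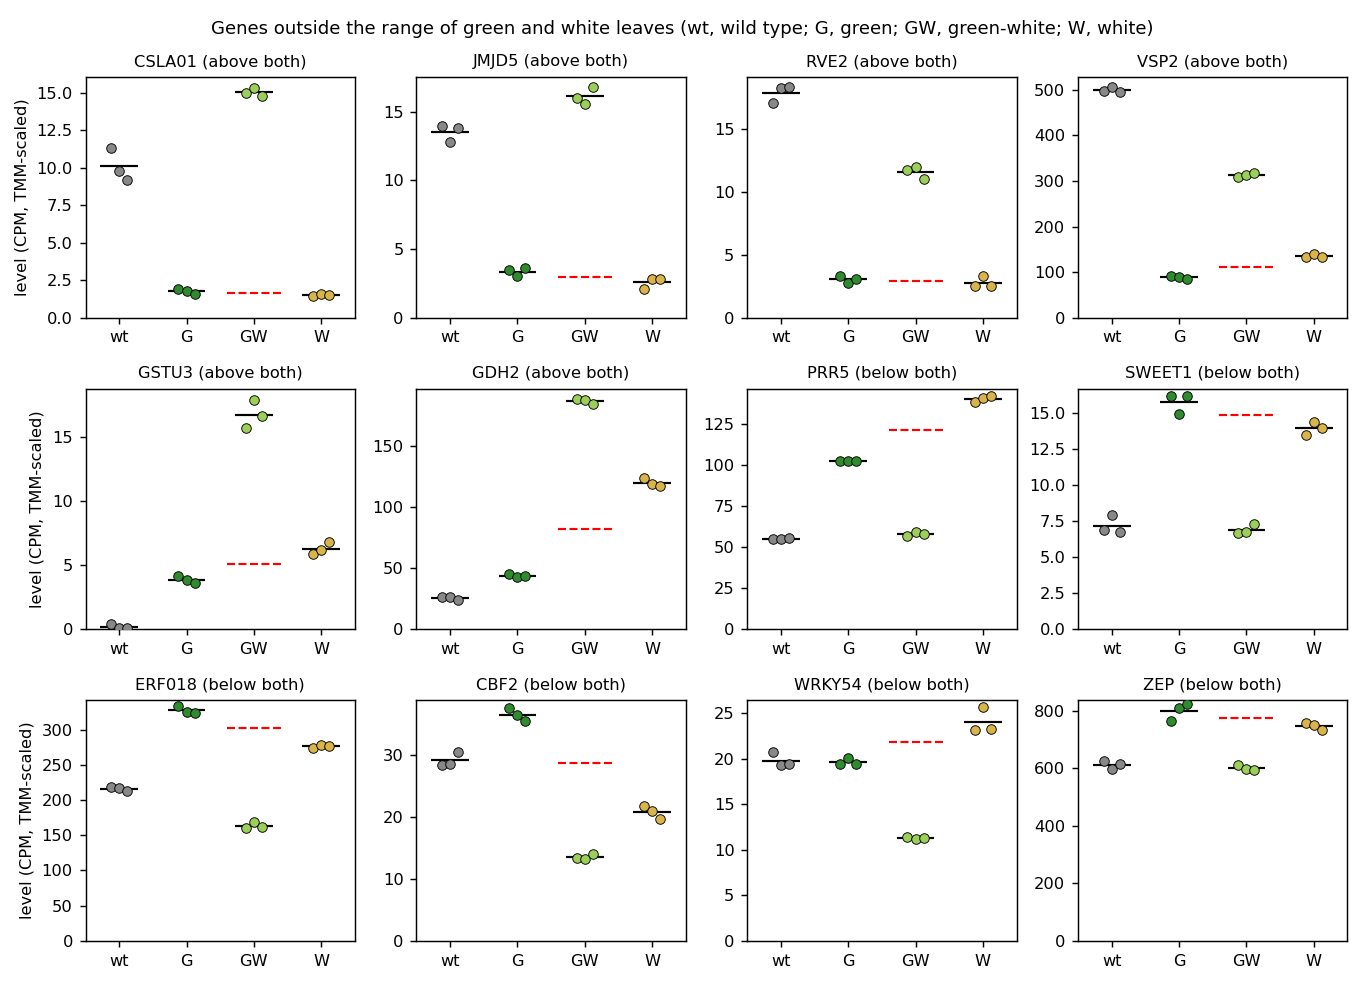
Each panel gives 1 gene outside the range, with its level in CPM on an axis from 0 for every library (points) and the group mean (black line, n = 3) of wild type, green, green-white and white leaves; the red dashed line is the midpoint of the green and white means. The green-white points lie beyond all green and white points in each panel, and the wild-type points are at a different place relative to them from gene to gene: near them for PRR5 and SWEET1, far below them for GSTU3 and GDH2.

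Jasmonate genes gave the list with the largest share above the range. Jasmonate is a hormone of wounding and defence made from plastid lipids, and JAZ proteins repress its response genes. Of 26 genes, 14 lay above the range and 0 below (13 to 16 above under the other scalings and DESeq2), where 8.49% and 7.39% of all tested genes did. The median log2 difference from the midpoint was 0.41 over the list and −0.04 over all tested genes. VSP2 (AT5G24770, chromosome 5, 8500468 to 8502224, minus strand), a vegetative storage protein and classic response gene, had 308.1, 313.9 and 318.0 CPM in green-white, 92.6, 88.5 and 84.3 in green and 132.5, 139.3 and 132.6 in white libraries. It lay above white, the nearer class, by 1.22 ± 0.03 on the log2 scale (adjusted p = 6.5e-23) but under the wild-type level of 495.6 to 506.5 CPM. Its neighbour VSP1 had 100.2, 103.2 and 104.2 CPM in green-white, 14.4, 12.6 and 13.5 in green and 44.6, 45.0 and 43.6 in white libraries (1.21 ± 0.04, adjusted p = 1.1e-20). JAZ10 had 72.8, 76.6 and 77.2 CPM in green-white, 42.9, 43.1 and 42.6 in green, 33.7, 33.7 and 35.9 in white and 16.4 to 17.0 in wild-type libraries, so here green-white leaves exceeded all other groups. The other members above were the biosynthetic genes LOX3, OPR3 and JAR1, the repressors JAZ2, JAZ5, JAZ9 and JAZ13, and CYP94B3, CYP94C1, JOX3 and ST2A, which inactivate jasmonates. The early biosynthetic genes LOX2, AOS and AOC1 to AOC4, and MYC2, the main transcription factor of the response, were inside the range.

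Lists of defence, senescence, stress and nitrogen salvage held a minority of members above the range, and their counts are to be read against the 8.49% of all tested genes that were above and the 7.39% below. Of 26 genes of salicylic acid and pipecolic acid defence, 10 were above and 1 below. PR2, a glucanase induced by salicylic acid, had 313.6, 332.6 and 316.3 CPM in green-white, 211.4, 218.1 and 201.0 in green and 127.8, 135.9 and 126.9 in white libraries (log2 distance 0.61 ± 0.03, adjusted p = 3.4e-15). EDS5, the salicylic acid exporter of the plastid, lay 1.45-fold above its nearer class and shares reads with a similar gene, and DLO1, a salicylic acid hydroxylase, lay 1.65-fold above. WRKY54 was the member below, at 11.5, 11.2 and 11.3 CPM against 19.4 to 20.1 in green and 23.2 to 25.7 in white and 19.3 to 20.8 in wild-type libraries. Of 18 senescence genes, 7 were above and 0 below. SAG20 and the NAC factor NAP, a promoter of leaf senescence, lay 1.37-fold and 1.52-fold above the nearer class. Their wild-type levels were 192.9 to 207.1 and 42.3 to 47.3 CPM. SAG12, a late senescence protease, was inside and below the midpoint, with a mean of 1.02 CPM in green-white, 0.642 in green and 4.91 in white leaves.

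Oxidative stress and mitochondrial dysfunction genes were above in 8 of 23 cases and below in 1. AOX1D, an alternative oxidase that bypasses part of the mitochondrial electron transport chain, had 63.9, 67.7 and 66.5 CPM in green-white, 24.4, 21.3 and 22.8 in green, 43.18, 43.99 and 42.14 in white and 3.56 to 4.01 in wild-type libraries. Its distance from white was 0.62 ± 0.04 on the log2 scale (adjusted p = 2.3e-13). The detoxifying glutathione transferases GSTU3 and GSTU4 lay 2.66-fold and 1.75-fold above the nearer class, and GSTU3 had 15.7, 17.9 and 16.6 CPM in green-white, 3.61 to 4.19 in green and 5.85 to 6.78 in white libraries. Counted by symbol after these values were seen, 9 of 24 tested GSTU genes were above and 1 below. More symbol families were counted in this way, and some had calls on both sides. WRKY genes gave 12 of 50 above and 6 below, and NAC genes 5 of 39 above and 3 below. ZAT10, a zinc finger repressor of the early stress response, was the list member below the range. Heat-shock genes were above in 6 of 14 cases, among them HSP70 (AT3G12580), with 94.8, 99.1 and 98.9 CPM in green-white, 38.6, 41.3 and 39.1 in green and 61.4, 62.8 and 64.6 in white libraries. HSP90.1, HSP101, HSP17.4, HSP17.6 and HSP17.8 were the others, at 1.49-fold to 1.63-fold from the nearer class. DREB2A, an activator of heat-shock factors, was below.

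Genes of nitrogen salvage were above the range in 5 of 17 cases and below in 1. GDH2 (AT5G07440), a glutamate dehydrogenase of carbon-starved tissue, had 188.7, 187.8 and 184.1 CPM in green-white, 45.0, 43.1 and 43.4 in green, 123.8, 119.1 and 116.9 in white and 24.4 to 26.9 in wild-type libraries, 1.56-fold above white (adjusted p = 5.8e-16). The nitrite reductase gene NIR1 lay 1.42-fold above green, its nearer class, and the glutamine synthetase gene GLN1;2 was below in the TMM fit but not with library totals (adjusted p = 0.20). In starch and sugar metabolism 6 of 29 genes were above and 3 below, where 8.49% and 7.39% of all tested genes were. Among those above were the beta-amylase gene BAM1, the hexose transporter gene STP4 and the glucose-6-phosphate transporter gene GPT2 (1.251-fold to 1.266-fold). SEX1, the glucan water dikinase of starch breakdown, was below under each scaling, whereas SUC1 and SS4 were below with TMM and inside with library totals. SWEET1 (AT1G21460), a glucose transporter gene, led the named genes below the range: it had 6.69, 6.72 and 7.29 CPM in green-white, 16.1, 14.9 and 16.2 in green and 13.5, 14.4 and 13.9 in white libraries (log2 distance −1.01 ± 0.07, adjusted p = 1.1e-12). Wild type had 6.77 to 7.91 CPM.

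Of the 22 dark-inducible and sugar-starvation genes 1 was above the range and 0 below, where 8.49% and 7.39% of all tested genes were. The members went both ways from the midpoint: 9 were called above it and 10 below, with log2 differences from −1.15 to 1.65 and a median of −0.01. The median position of the 16 genes with a 2-fold difference was 0.55, the value over all such genes also being 0.55. The member outside the range was DIN11 (AT3G49620, chromosome 3, 18393747 to 18397050, plus strand), a dioxygenase gene, which had 151.0, 154.4 and 151.4 CPM in green-white, 81.3, 84.2 and 83.7 in green and 14.8, 12.9 and 13.6 in white libraries. It exceeded green by 0.87 ± 0.04 on the log2 scale (adjusted p = 6.2e-18), and wild type had 1.61 to 2.26 CPM.

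Genes related to abscisic acid, the hormone of drought, were found on both sides. The phosphatase genes HAI1 and HAI2, induced by the hormone, lay 1.86-fold and 1.39-fold above the nearer class, and NCED3, which encodes the rate-limiting step of its synthesis, 1.21-fold above. Of the genes that break it down, CYP707A2 had 5.05, 4.95 and 5.27 CPM in green-white, 11.91, 12.81 and 12.99 in green and 9.58, 9.26 and 10.3 in white libraries (log2 distance −0.93 ± 0.09, adjusted p = 1.8e-10), and CYP707A4 lay 2.00-fold below white. Counted by symbol after these values were seen, as other families also were, 3 of 4 tested CYP707A genes were below. ABF1, a transcription factor of the response to the hormone whose annotation overlaps that of a neighbour, lay 1.76-fold below its nearer class, at 17.5 to 18.1 CPM in green-white, 30.9 to 31.4 in green, 33.1 to 34.6 in white and 29.9 to 31.8 in wild-type libraries. In the list of abscisic acid, cold and drought genes, which holds neither the CYP707A genes nor ABF1, 6 of 21 were above and 3 below. Over all tested genes these shares were 8.49% and 7.39%. The members below were RD22, itself induced by the hormone, and the cold regulators CBF1 and CBF2. CBF2 shares reads with a similar gene.

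The list of ethylene and defensin genes gave 2 of 17 above and 3 below, where 8.49% and 7.39% of all tested genes were. ACS8, a synthase of the ethylene precursor, was among the ranked genes farthest above and is not in that list. It had 6.45, 6.40 and 6.52 CPM in green-white, 0.904, 1.06 and 1.39 in green and 2.23, 1.92 and 2.61 in white libraries (log2 distance 1.52 ± 0.13, adjusted p = 4.3e-11). ACS6, another such synthase, lay 1.38-fold and the response factor ERF6 1.66-fold below the nearer class. EBF2, which marks ethylene signalling and shares reads with a similar gene, lay 1.42-fold above, and the defensin gene PDF1.1 was the other list member above. The call of PDF1.1 ended with DESeq2 (adjusted p = 0.15), without green library A or C (0.11 and 0.30), without green-white library A or B (0.086 and 0.13) and without white library B (0.070).

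Genes that respond within minutes to touch or wounding gave the list with the largest share below the range. Of 19 tested genes, 12 were below and 2 above, where 7.39% and 8.49% of all tested genes were. With library totals 8 were below, where 637 of the 19424 tested genes were. ERF018 (AT1G74930, chromosome 1, 28143851 to 28145058, plus strand), a transcription factor of this early response, had 160.5, 168.2 and 161.5 CPM in green-white, 333.1, 325.1 and 324.1 in green, 274.5, 278.3 and 277.2 in white and 212.7 to 218.0 in wild-type libraries. It lay below white, the nearer class, by a log2 value of −0.76 ± 0.03 (adjusted p = 6.2e-19). The deadenylase gene CAF1A, the calmodulin-like gene TCH2 and ZAT10 lay 1.304-fold, 1.33-fold and 1.28-fold below. TCH2 shares reads with a similar gene. The members above were TCH3 and CML37, both calcium sensors, at 1.18-fold and 1.14-fold. CML37 lost its call without green-white library A (adjusted p = 0.067).

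**Figure D3:**
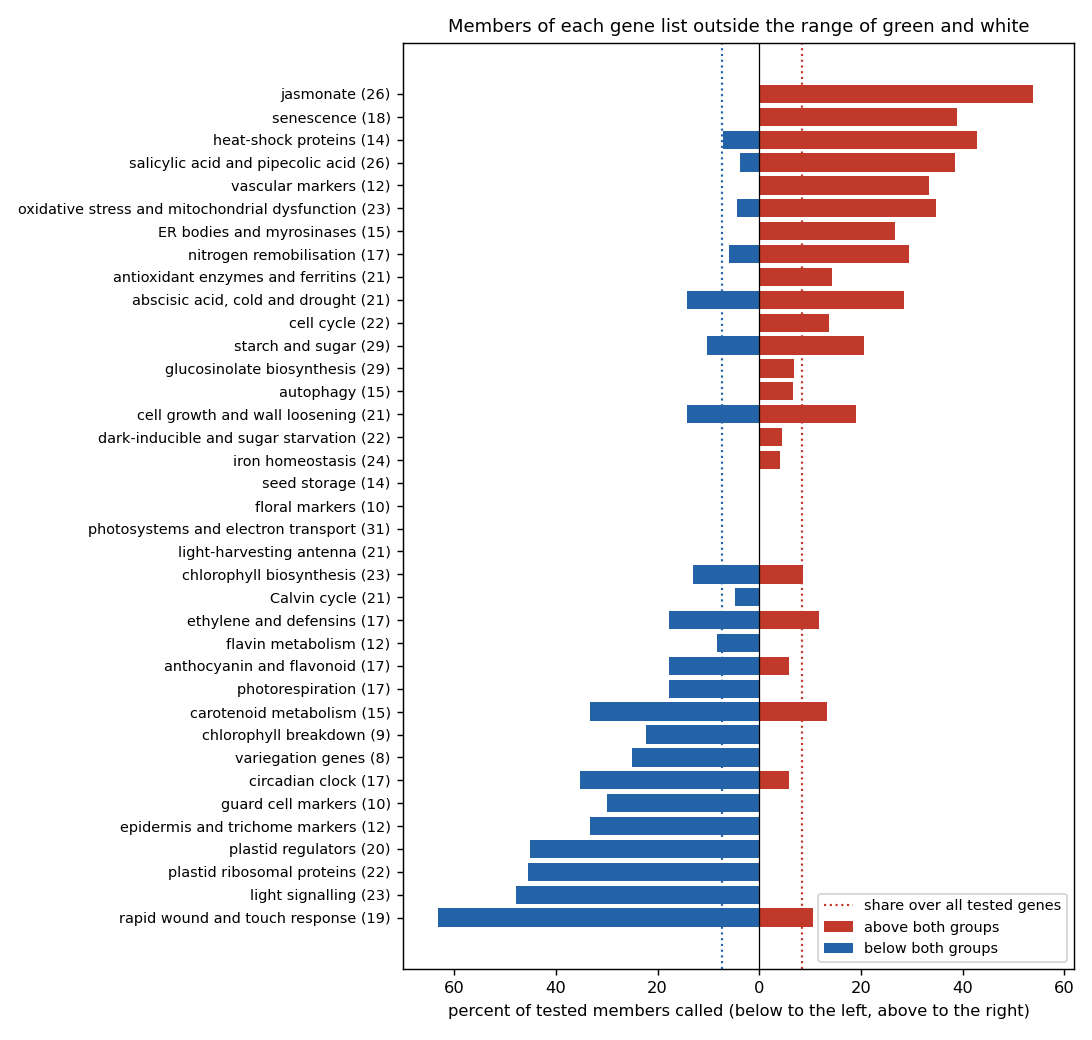
Bars give the percent of tested members of each gene list called above both classes (red, to the right) or below both (blue, to the left), with the number of tested members in parentheses and dotted lines at the shares over all tested genes, 8.49% above and 7.39% below. Jasmonate reaches farthest to the right and rapid wound and touch response farthest to the left, while the antenna, photosystem, floral and seed storage lists have no call on either side.

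Of 23 light signalling genes, 11 were below the range and 0 above with TMM, where 7.39% of all tested genes were below and 8.49% above. With library totals 9 were below, where 637 of the 19424 tested genes were. SPA1, a repressor of photomorphogenesis, had 92.9, 88.8 and 91.6 CPM in green-white, 126.1, 138.0 and 144.4 in green and 157.3, 155.8 and 153.6 in white libraries (1.50-fold, adjusted p = 1.9e-13). The B-box factor gene BBX24 and the blue-light receptor gene PHOT1 lay 1.36-fold and 1.29-fold below. Among the regulators of plastids 9 of 20 were below with TMM and 1 with library totals. The sigma factor genes SIG1, SIG3 and SIG5, whose products guide the plastid RNA polymerase, lay 1.21-fold, 1.195-fold and 1.247-fold below their nearer class. The calls of SIG3 and SIG5 ended with library totals (adjusted p = 0.47 and 0.17). All 22 tested genes of plastid ribosomal proteins were called below the midpoint, where 31.6% of all tested genes were, and 10 below the range, but 3 were below the range with library totals. Their median log2 difference from the midpoint was −0.15 with TMM and −0.06 with library totals, and scaling by totals moved the median of all genes from −0.04 to 0.05. CIA2, which promotes genes of chloroplast protein import and plastid ribosomes, lay farther out, at 21.3, 19.4 and 21.6 CPM in green-white against 34.7 to 38.0 in green and 48.3 to 52.5 in white libraries (1.73-fold, adjusted p = 3.1e-13).

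The flavin genes themselves gave 1 call of 12, below the range, where 7.39% of all tested genes were. RIBA3, a riboflavin synthesis gene, had 37.6, 36.1 and 36.4 CPM in green-white, 53.1, 53.5 and 51.9 in green and 47.4, 46.5 and 44.6 in white libraries (log2 distance −0.33, adjusted p = 1.2e-07). No tested flavin gene was called above the midpoint and 6 were called below it, where 22.2% and 31.6% of all tested genes were. Of 8 genes whose loss causes variegation, 2 were below the range, FTSH1 and VAR2 (1.17-fold and 1.13-fold). Both encode subunits of the thylakoid FtsH protease and are marked as sharing reads. In carotenoid metabolism ZEP, PDS and VDE were among 5 of 15 genes below the range, and BCH2 and NCED3 were above; VDE shares reads with a similar gene, and the calls of PDS and VDE ended with library totals.

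Where green and white leaves differed at least 2-fold (3172 genes, 16.3% of those tested), the position of green-white leaves between them was expressed as a fraction, 0 at white and 1 at green, on the linear scale. A mixture of RNA would put every gene at one value, equal to the green share. The median was 0.556, 0.551 and 0.549 in the green-white libraries, but the genes were spread widely, with quartiles at 0.319 and 0.802, and 21.8% of them lay between 0.4 and 0.6. Positions under 0 were found for 141 genes and above 1 for 319. Genes higher in green had a median of 0.475 and genes higher in white 0.612, an order that turned with library totals (0.573 and 0.554). Against the arithmetic midpoint, 4320 genes (22.2%) were called above and 6138 (31.6%) below; with library totals these were 6352 and 3882. At least 1.5-fold from it were 1092 genes above (5.62%) and 868 below (4.47%).

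**Figure D4:**
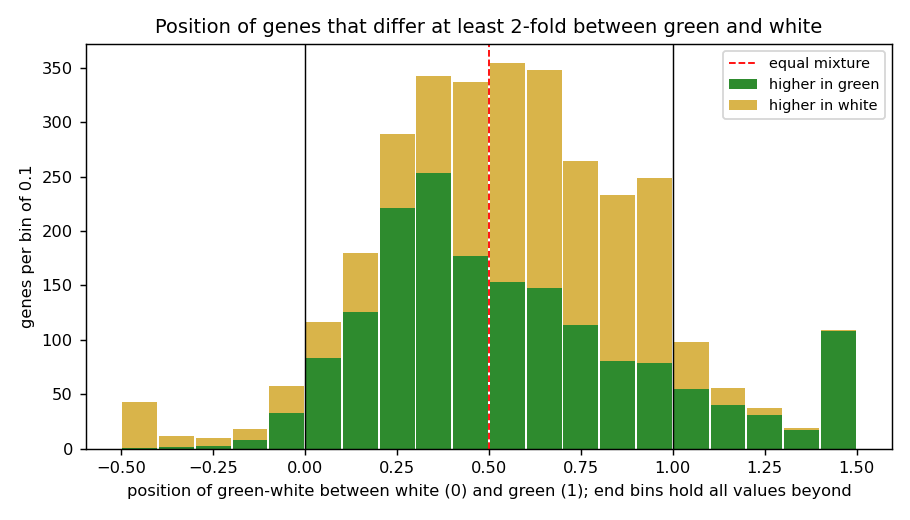
Number of genes per bin of 0.1 (y axis) by the position of green-white leaves between white at 0 and green at 1 (x axis), for the 3172 genes that differed at least 2-fold between green and white leaves; green bars are genes higher in green and yellow bars, stacked on them, genes higher in white. The genes form a broad distribution around 0.553 with 21.8% of them between 0.4 and 0.6, and not a peak at one share.

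Positions differed between functional groups more than between libraries. Photosynthesis genes lay nearer to white. The 19 antenna genes with a 2-fold difference, which encode the chlorophyll-binding proteins that collect light, had a median position of 0.294, and 0.289, 0.288 and 0.299 in the separate green-white libraries. LHCA4 (AT3G47470, chromosome 3, 17493343 to 17495033, minus strand) had 4755, 4731 and 4684 CPM in green-white, 10250, 10030 and 9583 in green and 2961, 2984 and 2939 in white libraries. It lay at 0.252, a log2 value of −0.45 ± 0.02 from the midpoint (adjusted p = 3.1e-17). LHCA3 and LHCB3 lay at 0.240 and 0.309. Of the 21 antenna genes 20 were called below the midpoint, where 31.6% of all tested genes were, and 0 outside the range. The sum of all 21 lay at 0.251, and at 0.305 with library totals. For the 27 photosystem and electron transport genes with a 2-fold difference the median position was 0.296, and 29 of 31 tested genes were below the midpoint. PSAL, a subunit of photosystem I, had 2413, 2387 and 2289 CPM in green-white, 4728, 4785 and 4601 in green and 1527, 1543 and 1558 in white libraries, at 0.259. PSAD1 and PSBP1 lay at 0.266 and 0.270. FD1, a minor ferredoxin, was the photosystem gene above the midpoint, with means of 172.7 CPM in green-white, 173.1 in green and 96.6 in white leaves; it was singled out after its values were seen. The 12 Calvin cycle genes had a median of 0.331, and 0.486 over the 7 that kept a 2-fold difference with library totals.

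Iron homeostasis genes, which sense and distribute iron, lay nearer still to white, with a median of 0.200 over 17 genes, and 0.263 over 16 with library totals. IMA1, a peptide that signals iron deficiency, had 6.97, 7.64 and 8.23 CPM in green-white, 37.7, 34.8 and 35.9 in green and 6.55, 5.98 and 6.78 in white libraries, at 0.040. The transcription factor genes BHLH38, BHLH39 and BHLH101, named after their values were seen, lay at 0.136, 0.086 and 0.152. BHLH38 shares reads with a similar gene. Of 24 tested iron genes 18 were called below the midpoint, 3 above it and 1, YSL3, above the range. Over all tested genes these shares were 31.6%, 22.2% and 8.49%. The expansin genes EXPA8 and EXPA11, which loosen cell walls in growth, were at the white level: EXPA8 had 18.4, 18.3 and 18.1 CPM in green-white, 105.4, 105.7 and 101.2 in green and 18.18, 17.71 and 18.24 in white libraries. The transporter gene SUC7 and the auxin-conjugating gene BRU6, both higher in white, were also close to white, at 0.062 and 0.069.

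Glucosinolate synthesis lay on the other side. Glucosinolates are the sulfur-containing defence compounds of the cabbage family. The 23 genes with a 2-fold difference, all higher in green, had a median position of 0.701, with 0.696, 0.706 and 0.687 in the separate libraries and 0.858 over 19 genes with library totals. Of 29 tested genes 24 were called above the midpoint, where 22.2% of all tested genes were, and 3 below it. With library totals 7 were above the range, where 2382 of the 19424 tested genes were. With TMM 2 were above it (6.9%), where 8.49% of all tested genes were. These 2 were MYB122 and FMOGS-OX2. MYB122 had 1.05, 1.17 and 1.57 CPM in green-white against 0.328 to 0.533 in green and 0.243 to 0.488 in white libraries. CYP79B3, which starts the indole branch and was named after its values were seen, had means of 81.8 CPM in green-white, 88.2 in green and 19.6 in white leaves, at 0.907. The myrosinase TGG2, which cleaves glucosinolates, lay outside, with 654.9, 683.1 and 686.8 CPM in green-white, 231.0 to 233.6 in green and 474.4 to 487.6 in white libraries (1.41-fold, adjusted p = 1.8e-15).

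Seed storage transcripts were found in white leaves and hardly in green-white leaves. The 14 tested genes, which encode storage proteins and oil body proteins of the embryo, summed to 65.0 to 71.2 CPM in white, 2.68 to 3.11 in green-white, 1.27 to 2.09 in green and 1.07 to 2.02 in wild-type libraries. The sum lay at 0.982, and at 0.979 with library totals, and 13 of the 14 genes were called below the midpoint. Cruciferin 3 (CRC, AT4G28520, chromosome 4, 14087556 to 14089796, plus strand) had 15.6, 16.6 and 16.8 CPM in white, 0.174, 0.389 and 0.140 in green-white and 0 in all 3 green libraries, at 0.986. CRA1, SESA3 and PAP85 lay at 0.984, 0.986 and 0.974. Equally near to green were 2 genes that were higher in green than in white: HVA22D, a stress-induced gene, at 46.9, 46.3 and 49.5 CPM in green-white, 43.4 to 50.8 in green and 10.2 to 12.6 in white libraries (0.985), and the xylan synthesis gene IRX15-L, whose annotation overlaps that of a neighbour, at 5.78, 7.46 and 7.15 CPM in green-white, 6.27 to 7.74 in green and 1.33 to 2.05 in white libraries (0.986). OLEO1 and the cruciferin gene CRB (AT1G03880) had no count in any green-white library and lay at least 12.8-fold and 12.7-fold below the midpoint, taking a floor of 3 counts per library, which covers counting error only. Photosynthesis at about 0.3 and seed storage at about 0.98 thus stood far apart in the same 3 libraries. Organ identity genes of the flower were measured beside them because floral tissue could carry seed transcripts. Of 10 tested floral markers 0 were outside the range. Called below the midpoint were 3 and above it 2, where 31.6% and 22.2% of all tested genes were. At least 2-fold different between green and white leaves were 8 markers, 1 of them higher in green and the others in white, with a median position of 0.535. All 10 summed to 134.4 to 140.4 CPM in green-white, 131.0 to 139.9 in green and 155.5 to 161.4 in white libraries. PI, a petal and stamen gene, had 0.523, 0.920 and 0.837 CPM in green-white, 0.986, 1.23 and 1.27 in green and 4.60, 4.58 and 4.27 in white libraries. The part of such tissue in the seed storage result was not tested.

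**Figure D5:**
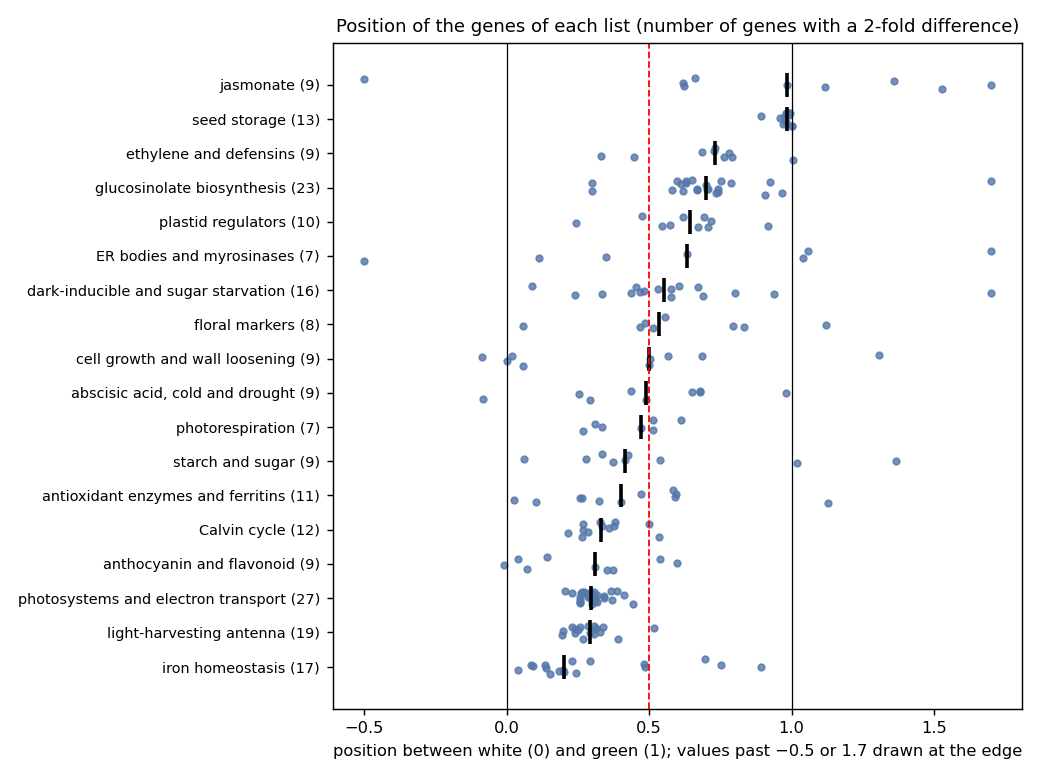
Each point is a gene with at least a 2-fold difference between green and white leaves, placed by its green-white position between white (0) and green (1) in the row of its list, black bars are list medians, and the red dashed line is an equal mixture; lists with 7 or more such genes are drawn. Iron, antenna and photosystem genes sit to the left at medians of 0.200, 0.294 and 0.296, glucosinolate and seed storage genes to the right at 0.701 and 0.984.

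Markers of leaf cell types were examined because a different make-up of the leaf could move other genes. Their counts with TMM, and those of cell cycle genes, are to be read against the 8.49% of all tested genes above the range and the 7.39% below. Counts with library totals are to be read against 2382 genes above and 637 below of the 19424 tested. Of 12 vascular markers, 4 were above the range and 0 below: the xylem protease genes XCP1 and XCP2 and the secondary wall synthase genes CESA7 and CESA8. XCP2 had 7.14, 6.61 and 5.51 CPM in green-white, 2.67, 3.03 and 2.83 in green, 3.73, 4.12 and 2.85 in white and a mean of 14.3 in wild-type libraries. CESA8 shares reads with a similar gene, and its call ended without green-white library B (adjusted p = 0.053). The whole vascular list summed to 427.8 to 441.3 CPM in green-white, 532.2 to 537.7 in green and 282.3 to 290.0 in white libraries, between both classes, and the phloem genes SUC2 and APL were inside the range. Epidermal and trichome markers gave 4 of 12 below the range with TMM, and 0 below and 1 above with library totals. Guard cell markers gave 3 of 10 below with TMM and 1 with library totals; FAMA, which sets guard cell identity, had 21.7, 20.7 and 21.8 CPM in green-white, 29.3, 30.4 and 29.1 in green and 27.2, 29.6 and 28.6 in white libraries. Cell cycle genes gave 3 of 22 above, CYCA2;3, MCM5 and CDKB2;1, at low levels of 1.32 to 5.61 CPM in green-white libraries, and the call of CDKB2;1 ended with DESeq2 (adjusted p = 0.053) and without green library A (0.13), green-white library B (0.11) or green-white library C (0.052). The part of cell make-up in the other results was not tested.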

How the data were processed

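The authors deposited 3 tables, each holding 1 melinoe leaf class beside wild type, with estimated counts per gene and library, made by the authors from filtered and aligned reads, per the file headers. Of the values 92.8% were whole. Per the labels' design text, SOAPnuke 1.5.2 filtered the reads and HISAT2 2.0.4 was the aligner, against TAIR10; Bowtie2, RSEM and DESeq2 are named without versions in the submitters' processing notes. Neither the annotation used for counting nor its strand setting is given in the sources used here, so overlapping and similar genes may share reads. The 18 TPM columns were not used. The tables were joined on gene ID with missing genes set to 0 (25169 genes, 23214 in every table, all matched to the TAIR10.1 annotation). The authors' wild-type counts were identical in the 3 tables and entered once.

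Estimated counts were rounded to whole numbers and fitted with edgeR 4.0.16 (R 4.3.3, limma 3.58.1) on all 12 libraries by quasi-likelihood, with TMM factors, group means (8 residual df) and edgeR's low-count filter, which left 19424 genes. Adjusted p in all texts are Benjamini-Hochberg values over these genes. The test of the range used the larger of the 2 quasi-likelihood p-values; the test of the midpoint was a Wald test against the arithmetic mean of the green and white levels, with delta-method standard errors from the same fit. CPM are TMM-scaled. Positions are descriptions with no test. Libraries of a group differed by more than sampling noise (chi-square per gene 1.57 to 3.86), so each counted once. Their spread was small, with a fitted common coefficient of variation of 0.0272. All p-values measure differences against this spread. With pooling and harvest unstated, whether it covers the variation between plants or between harvests is unknown. On simulated counts of this comparison (19264 genes tested), the range test recovered 58% of genes moved 1.25-fold, 90% at 1.5-fold and 98% at 2-fold, and called 0 of 19064 unmoved genes. The unmoved genes were set to the midpoint on the TMM scale. These figures therefore do not cover calls that TMM scaling of a mixture can give.

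The text names, in each direction, the 12 genes of largest distance from the nearer class among those with a symbol, at least 5 CPM and no overlap between libraries. It also names the 5 highest and 5 lowest positions among differences of at least 4-fold, with the same limits on symbol and CPM. Up to 3 called members per list and direction, up to 3 of a list without calls, and FMN/FHY were added. Members named beyond this rule, to complete a list's count, were chosen after their values were seen. The lists and the comparison itself were chosen with earlier results of these data known. Promoter windows came from the RefSeq sequence of TAIR10.1 with Python 3.11.15. Alternatives were other scalings (library totals, RLE, upper quartile), other low-count filters, the melinoe libraries alone, DESeq2 1.42.0, other midpoints and minimum distances, and each library left out.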

Additional observations from a re-analysis of the deposited data

How the results depend on the processing

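With library totals only, 637 genes were below the range in place of 1436 and 3882 below the midpoint in place of 6138; those above went to 2382 and 6352. The median log2 difference of all genes from the midpoint was −0.041 with TMM and 0.046 with library totals, and the share of above among calls outside the range was 53.5% with TMM, 57.9% with RLE, 50% with upper-quartile factors, 57.4% with DESeq2 and 78.9% with library totals. A minimum distance of 1.5-fold left 434 genes above and 98 below. The other alternatives kept these 4 counts within 1.5 times. The median position, 0.553, was 0.558 with library totals, 0.549 with RLE, 0.548 with upper-quartile factors and with DESeq2, 0.536 with a filter of 1 CPM, 0.55 over the 9 melinoe libraries and 0.641 over genes with a 4-fold difference. Leaving out each library in turn gave 1439 to 1693 genes above and 1229 to 1363 below the range, the latter always under 1436. It gave 3893 to 4470 genes above and 5374 to 5931 below the midpoint, and median positions of 0.55 to 0.565. Of 157 named results, 130 kept their side of the threshold under all 19 alternatives and 27 lost or gained a call in at least one. With library totals there were 20 losses and 1 gain (FMN/FHY against the midpoint). A change of sign was found for 0 results. For genes outside the range it required a move from below both classes to above both, or the reverse, so that count is a weak check. The cause of these differences was not tested. No paired analysis was possible because the columns carry letters that the labels do not tie to replicate numbers. Low counts limit the genes at about 1 CPM, and small distances depend on the scaling.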

Other observations

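Counts with TMM in these other observations are to be read against the 8.49% of all tested genes above the range and the 7.39% below. Those with library totals are to be read against 2382 genes above and 637 below of the 19424 tested. Wall and growth genes stood on both sides of the range, 4 of 21 above and 3 below. XTH9, an enzyme that remodels xyloglucan in growing walls, had 14.6, 14.6 and 15.3 CPM in green-white, 9.04, 8.27 and 9.30 in green and 7.66, 8.07 and 8.06 in white libraries (1.67-fold, edgeR adjusted p = 1.9e-10), and wild type was higher, at 37.0 to 38.9 CPM. XTH4 and the expansin gene EXPA10 lay 1.57-fold and 1.301-fold above their nearer class. EXPA1 lay just below white, at 187.6 to 195.2 CPM in green-white, 594.2 to 626.7 in green and 221.5 to 227.7 in white libraries. The growth regulator gene GRF1, whose annotation overlaps that of a neighbour, lay 1.604-fold below. Of 15 genes of ER bodies and myrosinases, the glucosinolate-cleaving system, 7 were above with library totals. With TMM 4 were above and 0 below. Beside TGG2 these included ESP and NSP1, which direct the cleavage to other products, at 1.26-fold and 1.21-fold, and NSP1 shares reads with a similar gene.

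Genes of chlorophyll and its neighbours gave few calls. HEMA2, an isoform of the first committed enzyme of tetrapyrrole synthesis, was above, with 124.2, 121.6 and 123.1 CPM in green-white, 71.5 to 76.9 in green, 99.8 to 103.4 in white and 36.1 to 37.5 in wild-type libraries (1.22-fold, edgeR adjusted p = 5.2e-08). Of 23 chlorophyll synthesis genes 2 were above and 3 below, and of 9 breakdown genes 0 and 2. Of 21 antioxidant and ferritin genes 3 were above and 0 below: the iron store FER3 (1.49-fold), the ascorbate peroxidase APX1 (1.26-fold) and the superoxide dismutase FSD1, at 105.2 to 110.5 CPM in green-white, 92.4 to 99.0 in green and 9.71 to 10.9 in white libraries. Flavonoid genes gave 1 of 17 above and 3 below, among the latter the repressor MYBL2 (1.29-fold). Photorespiration gave 0 of 17 above and 3 below, led by AGT, an aminotransferase of the peroxisome, at 1610 to 1642 CPM in green-white, 2103 to 2232 in green and 2042 to 2059 in white libraries (1.27-fold). With library totals photorespiration gave 1 above and 1 below. Autophagy gave 1 of 15 above, ATG18A, at 1.13-fold and an adjusted p of 0.026 by edgeR, and 0 with upper-quartile factors.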
